A study of Mus musculus with 16 samples.

Results

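The 8 genes described here belong to the RNase A family, secreted ribonucleases of vertebrates, and were taken by name from a table of 24062 genes: Rnase1, Rnase4, Rnase9, Rnase10, Rnase11, Rnase12, Rnase13 and Ang. Their reads were counted in sperm RNA of 16 male mice. The 8 males of the high-fat diet group (HFD) were fed a high-calorie, high-fat feed modified from D12492, and the 8 males of the control diet group (CD) received the control diet to D12492. All were 3 weeks old when the diet began and stayed on it for 9 weeks, after which motile sperm were isolated, and neither strain nor genotype is named in the sources used here. Both groups share the RNA protocol, in which 2 ng of total RNA was amplified as double-stranded cDNA and 250 ng of cDNA entered each library.

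Members of this family are small proteins held together by disulphide bonds. The catalytic ones cut single-stranded RNA with a pair of histidines and a lysine. Angiogenin, the product of Ang, is the family member known for cutting transfer RNA in the anticodon loop under stress and for promoting vessel growth. Rnase9 to Rnase13 are often called non-canonical members, and their known expression centres on the male reproductive tract. The epithelium of the epididymis secretes several of them onto passing sperm, and mouse Rnase10 is known from the first part of the duct, where its loss impairs sperm migration and binding to the egg coat.

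The coding sequences divide the 8 genes into members with and without the RNase A signature, the conserved stretch around the catalytic lysine. GENCODE M21 transcripts on GRCm38 were searched in frame for its 5 fixed codons within a run of 7. The bases are shown because the genes that hold the signature and the genes that were abundant here are different ones. Capitals mark fixed codons that match.

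Rnase1: TGCAAGcccgtgAACACCTTC

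Rnase4: TGCAAAcgcttcAACACCTTC

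Ang: TGCAAAgatgtcAACACCTTT

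Rnase10: TGCataaaccagtacACGTTC

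Rnase11: TGTcagttgggcAATgacTTT

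Rnase13: TGTAAAtacagcgagagcTTC

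Rnase1, Rnase4 and Ang matched 5 of 5 fixed codons, at codons 65 to 71, 68 to 74 and 63 to 69 of the longest coding sequence. The nearest run in Rnase10, Rnase11 and Rnase13 matched 3 of 5. In Rnase9 and Rnase12 no run matched more than 2 of 5, and none is printed since 2 runs in the former and 3 in the latter tied. These are matches of letters and not an alignment of the proteins.

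Apart from Rnase13, the genes lie within 139 kb of chromosome 14 (GRCm38, GENCODE M21). In order along the chromosome, Rnase10 spans 51007751 to 51010758 on the plus strand, Rnase9 51038459 to 51041869, Rnase11 51049451 to 51050163 and Rnase12 51056698 to 51057661 on the minus strand. Rnase4 follows at 51091077 to 51106151 and Ang at 51091150 to 51102009, both on the plus strand, and Rnase1 at 51144998 to 51146785 on the minus strand. Rnase13 stands 774.6 kb beyond, at 51921362 to 51922773 on the minus strand. Ang lies inside Rnase4, and 219 of its 1202 exon bases are also exon of Rnase4, so reads there could be assigned to neither gene. The other 6 genes overlap no annotated gene.

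**Figure D1:**
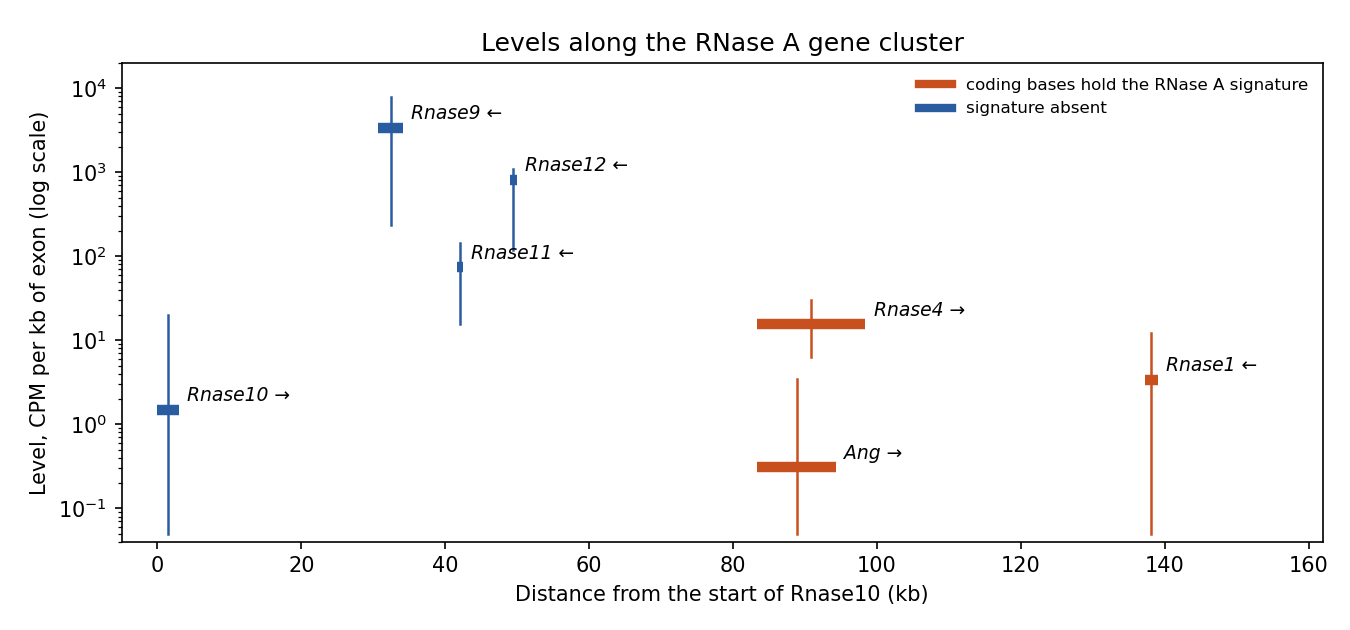
Levels along the gene cluster. The x axis is the distance in kb from the start of Rnase10, the y axis the level in CPM per kb of exon on a log scale. Each thick bar spans a gene at its median over 16 libraries, thin lines run from the lowest to the highest library (a line that meets the lower edge includes libraries at 0), and arrows give the strand. Rnase9 and Rnase12, without the signature, stand at 3393 and 815.5, and Rnase4, Rnase1 and Ang, with it, at 15.7, 3.40 and 0.31. Rnase10, also without the signature, stands at 1.50, below Rnase4 and Rnase1.

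Libraries held 1882555 to 7783981 gene counts. HFD 4 and HFD 8 stood apart from the rest in their marker levels, so values are also given without them. Their principal epididymal cell list, 11 of 11 genes tested and headed by Crisp1 and Spink8, reached 15750 and 9519 CPM there, while the remaining 14 libraries had 35930 to 85670. Their late spermatid list, 14 of 14 genes tested and including Prm1 and Odf1, reached 22900 and 57930 CPM, while the 14 had 2359 to 13220. The tissue labelled spermatozoa thus held sperm transcripts together with epididymal ones in all 16 libraries. In such bulk RNA, fewer cells of a type and less RNA per cell cannot be told apart. HFD 4 and HFD 8 were also highest in the meiotic list, at 3902 and 2953 CPM, while the 14 had 160 to 929. Their stroma and smooth muscle list reached 859 and 816 CPM, while the 14 had 230 to 662. They had the largest shares of reads in no feature, 76.0% and 75.0%, against at most 67.9% elsewhere. CPM here are counts scaled to library size with edgeR's TMM factors (a trimmed mean of log ratios between libraries), while comparisons between genes use CPM per kb of exon.

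Rnase9 was the family's dominant transcript and Rnase12 came next. Per kb of exon, Rnase9 exceeded Rnase12, and Rnase12 exceeded Rnase13, in 16 of 16 libraries. Medians over the libraries were 3393 CPM per kb for Rnase9, 815.5 for Rnase12, 99.6 for Rnase13, 74.7 for Rnase11, 15.7 for Rnase4, 3.40 for Rnase1, 1.50 for Rnase10 and 0.31 for Ang. Rnase13 and Rnase11 could not be ordered, since Rnase13 was the higher of the pair in 8 of 16 libraries. Rnase11 exceeded Rnase4 in 15 of 16, and Rnase4 exceeded Rnase1 in 15 of 16. The order of Rnase1, Rnase10 and Ang was not firm, with 10 of 16 libraries in the order of the medians for each neighbouring pair.

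As a share of all reads of the 8 genes, Rnase9 took 75.6% to 84.2% in the 14 libraries other than HFD 4 and HFD 8, and 68.9% and 64.1% in those. Rnase12 took 6.45% to 18.9% in the 14. The genes with the signature, Rnase1, Rnase4 and Ang together, took 0.29% to 1.06% in the 14, 4.15% in HFD 4 and 11.4% in HFD 8. The 8 genes together held 0.221% to 1.10% of gene counts in the 14 libraries, and 0.0589% and 0.0411% in HFD 4 and HFD 8. No molecular identifiers are named, so reads need not be separate molecules, and limits on counts of 0 cover counting error only.

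**Figure D2:**
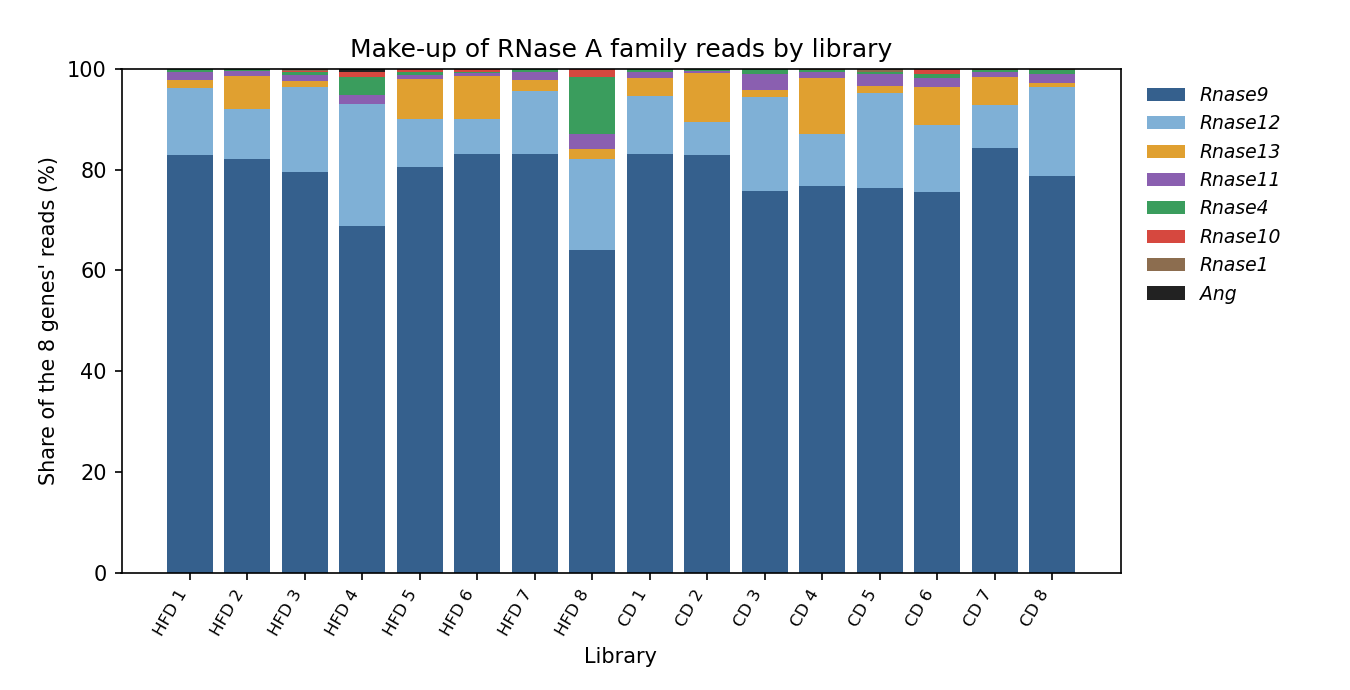
Make-up of the family's reads. Each bar is 1 library, stacked to 100% of the reads of the 8 genes, with the share of each gene in its colour. Rnase9 fills most of every bar, from 64.1% in HFD 8 to 84.2% in CD 7, and the Rnase4 band is widest in HFD 8, at 11.4%.

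The diet comparison asks which sperm transcripts differ with the diet of the male. No diet difference in the 8 genes passed the test, and the values of both diets overlapped for each gene. With edgeR's quasi-likelihood test and Benjamini-Hochberg adjustment, 0 of 13149 genes passed an adjusted p of 0.05 (percent called: 0), and 1482 genes, 11.3%, had an unadjusted p under 0.05. DESeq2 called 1 gene, which is none of these 8, and limma-voom called 0. Of the 8 ribonuclease genes, 7 passed the expression filter and Ang did not. Of the 7, 0 passed, 0 had an unadjusted p under 0.05, 2 had positive and 5 negative log2 fold changes of HFD over CD. Their median log2 fold change was -0.19, against -0.0042 over all genes tested. edgeR adjusted p-values ran from 0.731 for Rnase10 to 0.910 for Rnase9.

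**Figure D3:**
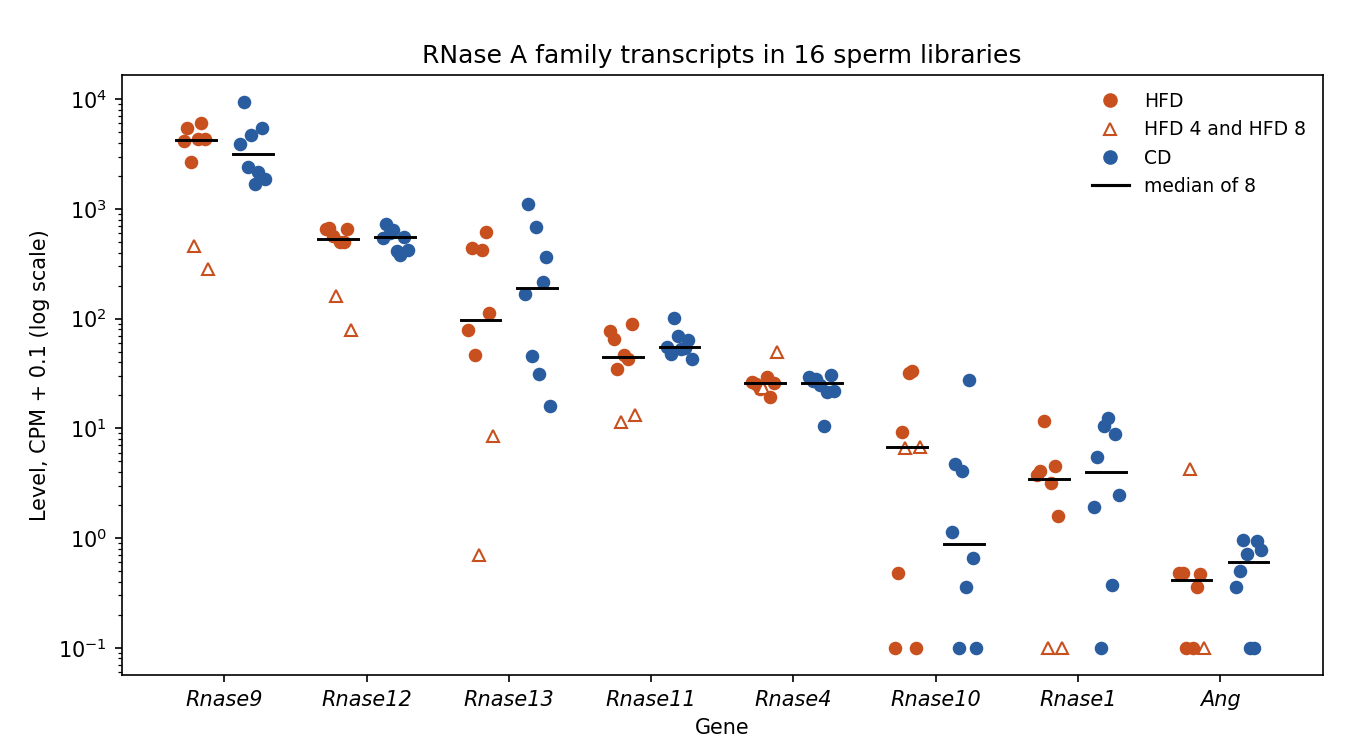
Levels of the 8 genes by library. The y axis is CPM + 0.1 on a log scale, points are libraries (HFD left, CD right in each pair), open triangles mark HFD 4 and HFD 8, and bars are medians of 8. Points at 0.1 are libraries without a read. The diets overlap in every gene, Rnase4 lies between 10.5 and 49.9 CPM, and Rnase13 reaches from 0.60 to 1113.

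Promoter windows from RefSeq (GRCm38.p6, 250 bases before to 50 after a start) are shown for Rnase10 and Rnase13, which varied widely between libraries, for the abundant Rnase9, and for the start that Rnase4 and Ang share. Windows were found for 8 of 8 genes, and Rnase4 and Rnase10 have 2 each, of which the upstream one is printed. Capitals mark AGGAAG, the core of ETS family sites, and AGAACA, the half-site of the androgen response element, on either strand, so that matches on the opposite strand read CTTCCT and TGTTCT. Both were chosen because epididymal genes are known to depend on ETS factors and androgen.

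Rnase9, chr14:51041818-51042117, minus strand: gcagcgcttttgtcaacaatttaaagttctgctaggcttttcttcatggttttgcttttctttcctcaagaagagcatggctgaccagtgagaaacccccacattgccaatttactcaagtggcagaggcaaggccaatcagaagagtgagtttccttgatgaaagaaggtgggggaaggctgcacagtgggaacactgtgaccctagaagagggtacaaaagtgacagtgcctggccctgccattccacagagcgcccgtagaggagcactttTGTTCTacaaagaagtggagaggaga

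Rnase10, chr14:51007501-51007800, plus strand: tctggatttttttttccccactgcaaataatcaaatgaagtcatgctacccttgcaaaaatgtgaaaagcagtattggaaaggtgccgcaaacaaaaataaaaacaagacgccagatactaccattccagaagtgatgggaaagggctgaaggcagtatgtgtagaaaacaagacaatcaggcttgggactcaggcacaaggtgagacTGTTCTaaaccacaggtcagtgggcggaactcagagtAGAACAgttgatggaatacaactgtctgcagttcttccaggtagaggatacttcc

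Rnase13, chr14:51922724-51923023, minus strand: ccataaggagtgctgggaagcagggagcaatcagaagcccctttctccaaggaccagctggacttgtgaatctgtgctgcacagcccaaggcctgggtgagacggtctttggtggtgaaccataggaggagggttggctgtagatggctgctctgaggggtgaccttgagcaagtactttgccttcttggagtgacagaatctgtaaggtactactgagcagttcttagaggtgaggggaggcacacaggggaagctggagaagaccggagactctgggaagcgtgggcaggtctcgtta

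Rnase4 and Ang, chr14:51090827-51091126, plus strand: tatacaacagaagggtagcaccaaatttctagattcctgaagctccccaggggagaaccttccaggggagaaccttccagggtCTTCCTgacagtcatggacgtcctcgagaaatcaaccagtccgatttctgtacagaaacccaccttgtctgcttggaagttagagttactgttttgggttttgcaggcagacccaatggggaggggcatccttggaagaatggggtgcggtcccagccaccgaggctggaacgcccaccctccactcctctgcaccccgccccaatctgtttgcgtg

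The half-site occurred in the windows of Rnase10, at -42 and -5 from the start, and of Rnase9, at 25 after it. Neither motif was in the Rnase13 window. AGGAAG was in the shared window of Rnase4 and Ang, at -167. Of the windows not printed, Rnase12 held AGGAAG at -118 and -178 and Rnase11 at 25, while Rnase1 held neither motif. The downstream starts of Rnase4 and Rnase10 held both motifs. The windows of Rnase10 overlap, and the half-sites of its downstream window are the same bases as those at -42 and -5. Of 32851 windows of this length, 35.4% hold AGGAAG and 19% AGAACA, so such matches are common.

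Rnase9 encodes a secreted protein of the epididymal epithelium that is known to lack ribonuclease activity and to act in sperm maturation. In HFD it ran from 281 CPM in HFD 8 through a median of 4218 to 6012 in HFD 6, and in CD from 1682 in CD 5 through 3180 to 9367 in CD 2. The diets overlap, with HFD 4 and HFD 8 below all other libraries and CD 2 above them. The log2 fold change was -0.19 ± 0.53 (SE), with an edgeR adjusted p of 0.910. It was 0.21 without HFD 4 and HFD 8, 0.12 without CD 2, -0.00052 without HFD 4 and -0.01 without HFD 8. Among single libraries left out, only CD 2 turned its sign. Without CD 2 the CD mean went from 3955 ± 2598 (SD, n = 8) to 3181 ± 1515 CPM (SD, n = 7).

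Rnase12, a little-studied gene of the same branch, was the steadiest of the epididymal members once the 2 libraries are set aside. It had 79.2 CPM in HFD 8 and 160 in HFD 4, and 381.8 to 728 CPM in the other 14, a span of 1.91-fold. The median was 535 CPM in HFD and 549 in CD. Over the same 14 libraries Rnase9 spanned 5.57-fold, Rnase11 2.91-fold, Rnase4 2.94-fold and Rnase13 70.0-fold. The log2 fold change of Rnase12 was -0.18 ± 0.34 (SE) with an edgeR adjusted p of 0.868, and -0.03 without HFD 4, -0.01 without HFD 8 and 0.16 ± 0.15 (SE) without both.

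Rnase11, whose gene stands next to Rnase12, ran from 11.3 CPM in HFD 4 through a median of 44.6 to 89.1 in HFD 7, and in CD from 42.9 in CD 8 through 54.5 to 102 in CD 3. HFD 4 and HFD 8 held its lowest values, and the other 14 libraries overlap between the diets. The log2 fold change was -0.36 ± 0.35 (SE) with an edgeR adjusted p of 0.744, -0.03 without HFD 4 and HFD 8, -0.20 without HFD 4, -0.21 without HFD 8 or without CD 3, and -0.55 without HFD 7. Reads of Rnase11 amounted to 0.508% of those of Rnase9 in CD 2 and 4.19% in CD 3, so these neighbouring genes were not in a fixed proportion. Rnase12 likewise ranged from 7.77% of Rnase9 reads in CD 2 to 24.9% in CD 3 among the 14 libraries.

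Of the members without the signature, Rnase13 and Rnase10 varied most between libraries. Rnase13, for which no function is well established, ran from 0.60 CPM in HFD 4, a single read, through a median of 96.1 to 622 in HFD 6. In CD it ran from 15.9 CPM in CD 8 through 192 to 1113 in CD 2. The ranges overlap widely, and the difference moved with single libraries, with CD 2 the most. The log2 fold change was -0.61 ± 0.94 (SE, edgeR adjusted p = 0.833), and -0.01 without CD 2. It was -0.18 without HFD 4 and HFD 8, -1.06 without HFD 6 and -0.34 without CD 4. With the summed level of the initial segment and caput list as a covariate it was -1.63 ± 0.56 (SE), with an edgeR adjusted p of 0.129. That sum weighs genes by their level. Gpx5 alone made up 7826 of its 10030 CPM in HFD 5 and 6414 of 8752 in HFD 6, but 242 of 1652 in CD 6.

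Rnase13 was high in libraries that also held Gpx5, the secreted glutathione peroxidase of the caput, the proximal part of the epididymis. The 6 libraries with the most Rnase13 were CD 2 at 1113 CPM, CD 4 at 681, HFD 6 at 622, HFD 2 at 436, HFD 5 at 421 and CD 7 at 366. Their Gpx5 stood at 1999, 1301, 6414, 2608, 7826 and 996 CPM. Among the other 10 libraries Gpx5 reached at most 254 CPM, in HFD 3, except for HFD 8 with 1871 CPM of Gpx5 and 8.37 of Rnase13. Other genes of the initial segment and caput list went differently. Lcn9 was at 0 in CD 2, CD 4, HFD 2 and CD 7, where Cst8 stood at 8.07, 13.5, 9.44 and 10.2 CPM. Cst8 was highest in HFD 8 and HFD 4, which held the least Rnase13 and the most of the late spermatid list. Whether caput RNA in the preparation accounts for the spread of Rnase13 was not tested.

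Rnase10, the gene of the initial segment, ranged from no reads to 129 reads a library, with 7 of 16 libraries at 3 reads or fewer. In HFD it was at 0 counts in HFD 1 and HFD 7, at 6.55, 6.63 and 9.24 CPM in HFD 4, HFD 8 and HFD 3, and at 31.8 and 33.3 in HFD 5 and HFD 6. In CD it was at 0 in CD 3 and CD 8 and at 27.3 CPM in CD 6, with at most 4.63 in the rest. A count of 0 allows up to 3 counts, which is 0.576 CPM in HFD 1 to 1.11 in HFD 7 over these 4 libraries. The log2 fold change was 1.21 ± 1.14 (SE) with an edgeR adjusted p of 0.731. It was 2.78 without CD 6, 0.76 without HFD 5 and 0.70 without HFD 6, so its size moved with 3 libraries. With the initial segment and caput list as a covariate it was 0.35. Without CD 6 the CD mean went from 4.71 ± 9.29 (SD, n = 8) to 1.49 ± 1.96 CPM (SD, n = 7).

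The lipocalins Lcn8 and Lcn9, 2 of the 14 genes of the initial segment and caput list, were highest in the same 3 libraries. Lcn9 had 35.6 CPM in HFD 5, 40.3 in HFD 6 and 56.2 in CD 6, 4.45 in HFD 3 and at most 0.51 elsewhere. Lcn8 had 43.8, 46.5 and 107 CPM in those 3, 12.7 in HFD 3 and at most 3.06 elsewhere. HFD 4 and HFD 8 had 11 and 19 reads of Rnase10 and 0 of Lcn9. Other genes of the list did not share this order. Cst8, a cystatin, was highest in HFD 8 and HFD 4, at 376 and 186 CPM, and stood at 27.0 in CD 6. HFD 8 and HFD 4 were also highest in the late spermatid list, at 57930 and 22900 CPM. Whether Cst8 reads came from caput or germ cell RNA was not tested. Gpx5 was at 242 CPM in CD 6, against 2608 in HFD 2 and 1999 in CD 2. The sum of the list in CD 6, 1652 CPM, lay below that of HFD 2 (4281), CD 2 (4074), CD 4 (3348), HFD 8 (3002) and CD 7 (2759). Gpx5 made up 2608 of the 4281 CPM in HFD 2 and 242 of the 1652 in CD 6. Over all libraries the list, 7 of 14 genes tested, summed to 397 to 10030 CPM in HFD and 355 to 4074 in CD, and no gene of it was at 0 in all libraries. The part of this RNA in the Rnase10 values was not tested.

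**Figure D4:**
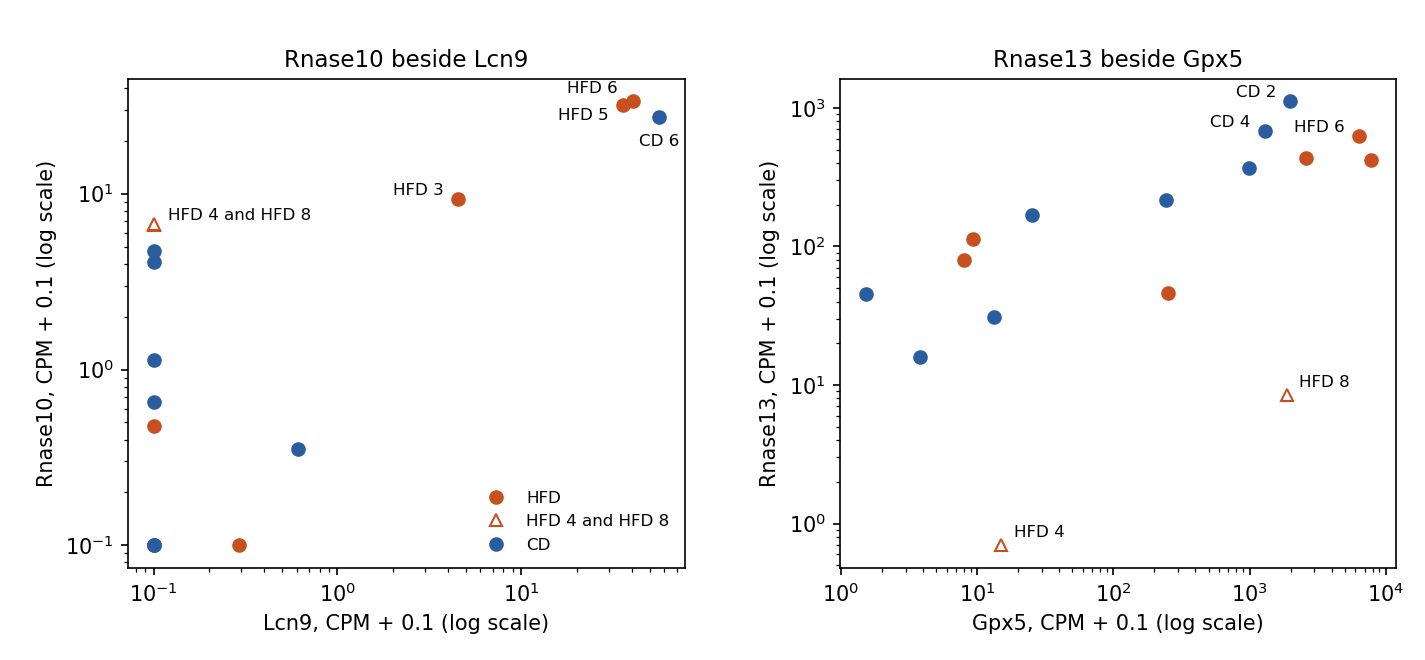
Rnase10 beside Lcn9 (left) and Rnase13 beside Gpx5 (right). Both axes are CPM + 0.1 on log scales, each point is 1 library, open triangles are HFD 4 and HFD 8, and 3 libraries with neither Rnase10 nor Lcn9 lie on one another at the lower left. HFD 5, HFD 6 and CD 6 stand alone at the upper right of the left plot, and HFD 8 lies far below the other libraries of similar Gpx5 in the right plot.

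Within a library, Rnase10 reads relative to Rnase9 reads did not differ detectably with diet. The log2 ratio with 0.5 added to each count averaged -9.70 ± 4.08 in HFD and -11.5 ± 2.45 in CD (SD, n = 8 each). In HFD 1, HFD 7, CD 3 and CD 8, without Rnase10 reads, the added 0.5 and the Rnase9 count set the ratio. The difference of 1.77 had a two-sided exact permutation p of 0.305 over 12870 assignments, and 0.610 after Benjamini-Hochberg adjustment over the 2 ratios tested. It was 1.15 without HFD 8, 0.44 without HFD 4 and HFD 8, and 1.45 with 5 added to each count (exact permutation p = 0.221). For Ang relative to Rnase4 the log2 ratio averaged -5.95 ± 1.72 in HFD and -5.67 ± 0.93 in CD, a difference of -0.28 with an exact permutation p of 0.708 (adjusted 0.708). It rested on 0 to 7 Ang reads a library and was -0.79 without HFD 4 and 0.03 without HFD 8.

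The members with the RNase A signature were low or scarce. Rnase4, a ribonuclease that prefers uridine in its substrate and is made by many tissues, liver among them, ran in HFD from 19.4 CPM in HFD 6 through a median of 25.7 to 49.9 in HFD 8. In CD it ran from 10.5 CPM in CD 5 through 25.9 to 30.8 in CD 7. All libraries but HFD 8 and CD 5 lie between 19.4 and 30.8 CPM in both diets. HFD 4, where Rnase9 was low, held 23.2 CPM of Rnase4, inside that range. The log2 fold change was 0.20 ± 0.24 (SE) with an edgeR adjusted p of 0.788, 0.02 without HFD 8, 0.10 without CD 5 and 0.05 without HFD 4 and HFD 8.

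Rnase1, the pancreatic type that endothelium also releases, ran from 0 CPM in HFD 4 and HFD 8 through a median of 3.37 to 11.6 in HFD 3. In CD it ran from 0 CPM in CD 3 through 3.90 to 12.3 in CD 5. Values near 0 and values near 10 occurred in both diets. The log2 fold change was -0.52 ± 0.81 (SE) with an edgeR adjusted p of 0.834, -1.04 without HFD 3, -0.20 without CD 5, -0.31 without CD 4, -0.34 without either HFD 4 or HFD 8 and -0.13 without both. The endothelial list, 5 of 8 genes tested and headed by Kdr, Eng and Pecam1, summed to 29.8 to 74.4 CPM in HFD and 20.8 to 46.4 in CD. HFD 4 and HFD 8, at 74.4 and 53.7 CPM of that list, held no Rnase1 reads. A count of 0 allows up to 1.785 CPM in HFD 4 and 1.046 in HFD 8.

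Ang was almost absent. It had 13 reads over the 8 HFD libraries and 14 over the 8 CD libraries, and 5 of 16 libraries had none. HFD 4 held 7 of the 13 HFD reads, or 4.17 CPM, and no other library exceeded 0.85 CPM. Under a filter that kept any gene with a read, the log2 fold change was 0.41 ± 1.0 (SE) with an edgeR adjusted p of 0.893, and -0.97 without HFD 4. Reads in the exon bases shared with Rnase4 could have gone uncounted, which was not tested, and the levels per kb divide by all 1202 exon bases. At such counts a diet difference in Ang was not detectable.

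Outside the 8 genes, most of the listed family members in the table had no counted reads. Of 17 further RNase A genes listed (eosinophil-type Ear and Rnase2 genes, Rnase6 and the Ang paralogues), 16 were in the table, 10 had 0 reads in all 16 libraries and 1 passed the filter. The one that passed, Rnase6, a monocyte ribonuclease, averaged 8.31 ± 4.41 CPM over the 8 HFD and 9.85 ± 3.01 over the 8 CD libraries (SD), and its edgeR adjusted p was 0.846. The Ang paralogues Ang2 to Ang6 had no reads. These genes resemble Ang closely. Reads without a unique alignment, 15.8% to 30.7% of a column's reads, stood in a summary row and were assigned to no gene. The counts of 0 in these and the other paralogues, and the Ang values, are therefore uncertain. The eosinophil list, 0 of 5 genes tested, summed to at most 8.02 CPM, with its defining gene Epx at 0 in all 16 libraries. The leukocyte list, 10 of 12 genes tested and including Lyz2 and Cd74, summed to 329 to 1376 CPM in HFD and 222 to 942 in CD.

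Genes that act on or beside these enzymes ranged from no reads to a mean of 126 CPM in CD. Of 13 listed, 10 passed the filter, 4 with positive and 6 with negative log2 fold changes, and 0 passed the test, with a median of -0.10. The other 3 were Rnaset2a, with 0 reads in all libraries, Rnaset2b, with means of 0.25 CPM in HFD and 0.18 in CD, and Endou, with 0.048 and 0.50. Rnh1, the cytosolic inhibitor that binds RNase A enzymes, averaged 48.2 ± 31.4 CPM under HFD and 58.9 ± 25.4 under CD (SD over 8 libraries each). It stood at 2.98 CPM in HFD 4 and 8.72 in HFD 8, and at 28 to 103 elsewhere. Plxnb2, a plexin reported as an angiogenin receptor, had 86.2 CPM ± 30.7 and 96.1 ± 20.7. Rnaseh2a, the catalytic subunit of RNase H2, which removes RNA from RNA-DNA hybrids, had 115 CPM ± 130 and 53.5 ± 22.8. Its values in HFD 4 and HFD 8 were 254 and 380 CPM, against at most 92.4 elsewhere, and its edgeR adjusted p was 0.442. Rnasek, a membrane-bound endoribonuclease, had 123 CPM ± 35.3 and 126 ± 28.7, with an edgeR adjusted p of 0.957.

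The genes most alike in level across libraries differed from member to member. Likeness is the Spearman rho of log2 CPM over 16 libraries, given as a description, since libraries share their mixture of sperm and epididymal RNA. For Rnase9 the closest genes were Wfdc9 (0.98), C4bp (0.98), Adam7 (0.97), Defb30 (0.97) and Rnf149 (0.97), among them the known epididymal genes Adam7 and Defb30. For Rnase13 they were Alpl (0.97), Plac8 (0.97), Lipi (0.97), Tmem229b (0.97) and Slc41a2 (0.97). For Rnase12 they were Psme2 (0.95), Samd5 (0.95), Atp11b (0.94), Mboat1 (0.94) and Spink8 (0.94), and for Rnase11 Kdsr (0.95), Sft2d2 (0.91), Acsl5 (0.90), Plet1 (0.90) and Plet1os (0.89). Rnase10, Rnase4 and Rnase1 had looser partners, led by Memo1 (0.84), Oma1 (0.82) and Txn2 (0.87).

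Among the members themselves, Rnase9 and Rnase13 were the most alike, with a rho of 0.91 over 16 libraries and 0.86 over the 14 without HFD 4 and HFD 8. Rnase9 and Rnase12 stood at 0.74 and 0.61. Rnase11 and Rnase10 ran opposite to each other, at -0.69 and -0.68. HFD 7, CD 3 and HFD 1, with the most Rnase11 at 89.1, 102 and 76.2 CPM, had no Rnase10 reads. CD 8 had none either, and its 42.9 CPM of Rnase11 was the lowest in CD. The rho rests on few Rnase10 reads, with 2 libraries of each diet at 0. Rnase4 was at or below 0.22 with each of the other 6 over 16 libraries, and over the 14 it stood at 0.44 with Rnase12, 0.40 with Rnase11 and 0.32 with Rnase9.

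**Figure D5:**
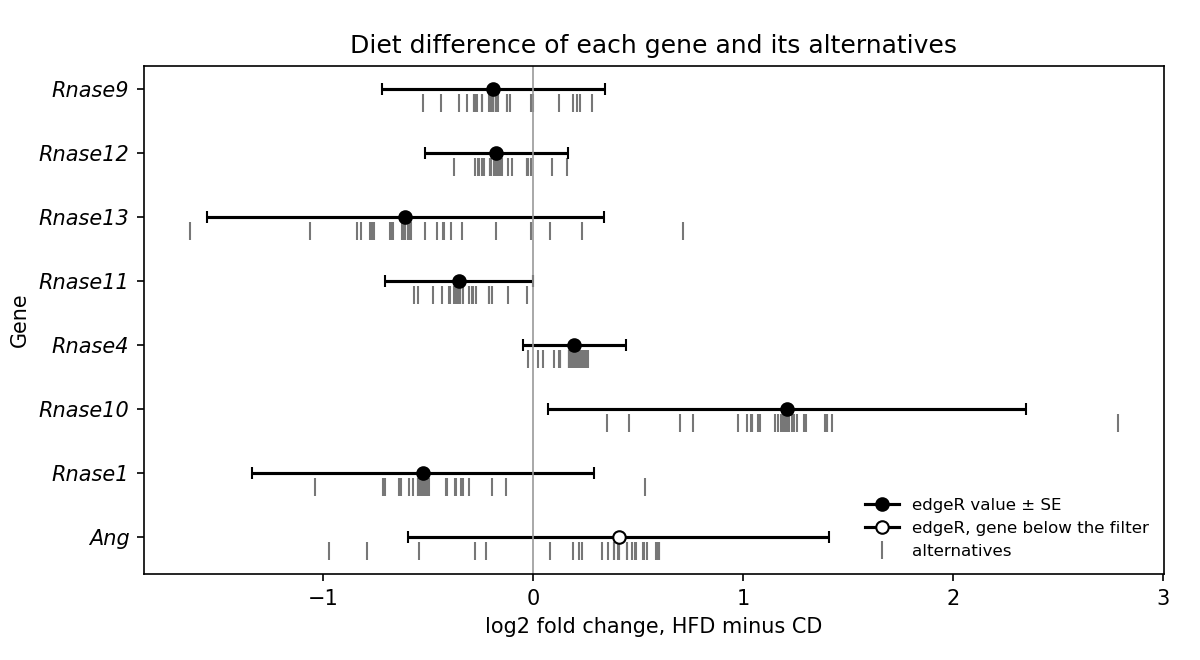
Diet difference of each gene. The x axis is the log2 fold change of HFD over CD, circles are edgeR values with 1 SE (open for Ang, below the filter), and ticks under each circle are the values under the alternatives. The ticks of Rnase9, Rnase12, Rnase13, Rnase4, Rnase1 and Ang fall on both sides of 0, and those of Rnase10 and Rnase11 on 1 side.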

How the data were processed

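RNA of motile sperm from 16 mice, 8 a diet, was sequenced after whole-transcriptome amplification. The authors deposited unnormalised counts of reads by gene symbol, in 24062 gene rows and 5 summary rows, which stayed out of library sizes and tests. Per the submitters' processing notes, the build was mm10 and the tools were DESeq2 1.0.19, HTSeq 1.0.0 and STAR, while the sources used here name neither annotation nor strand setting. Between 58.0% and 76.0% of a column's reads fell in no feature. The series describes mice, so libraries were taken as animals. The 56 pairs within a diet differed beyond sampling noise (chi-square 12.7 to 172 per degree of freedom).

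Diets were compared with edgeR 4.0.16 (R 4.3.3): robust quasi-likelihood test, TMM, default filter, diet as sole term, two-sided, Benjamini-Hochberg over 13149 genes, threshold 0.05. SE is the log2 fold change divided by the square root of F. Tested on simulated data for this comparison (13149 genes), it recovered 12, 36, 47 and 42 of 50 genes changed 2-, 4-, 8- and 16-fold, with 7 false calls, and made 0 calls with no gene changed. Ratios were tested by exact permutation.

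Named genes were the 8 members, the 5 tested genes with the highest rho to each tested member (only the first is printed for Rnase1, Rnase4 and Rnase10), tested genes of the paralogue and partner lists, and genes taken from the 4 with the highest mean CPM in each of 12 lists. The members and lists were chosen with earlier results of these data known. Lcn8, Lcn9, Gpx5, Cst8, Endou, the Rnaset2 genes and the Ang paralogues were singled out after their values were seen. Alternatives were DESeq2 1.42.0, limma 3.58.1 (voom), scaling, filters, covariates, block and left-out libraries. Clear cell, meiotic, eosinophil, stromal and liver lists summed to 78.1 to 247, 160 to 3902, 0 to 8.02, 230 to 859 and 14.6 to 138 CPM.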

Additional observations from a re-analysis of the deposited data

Results flagged for a closer look

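Of 20 groups of 8 values examined (the log2 level of each gene and both log2 ratios, in each diet), 4 held a value whose gap to its neighbour exceeded 0.526 of the group's range. That limit is passed by about 1 in 20 groups of independent, normally distributed values. Groups here hold counts of 0, and the ratios reuse the reads of the genes, so that rate need not hold for them. Rnase4 in HFD 8 stood at 49.86 CPM, above the 19.4 to 29.4 CPM of the other 7 HFD libraries, and without it the HFD mean was 24.6 ± 3.21 CPM (SD, n = 7) in place of 27.8 ± 9.41 (SD, n = 8). Rnase4 in CD 5 stood at 10.47 CPM, below the 21.3 to 30.8 CPM of the other 7 CD libraries, and without it the CD mean was 26.2 ± 3.65 CPM (SD, n = 7) in place of 24.2 ± 6.51 (SD, n = 8). Ang in HFD 4 stood at 4.166 CPM, from 7 reads, against at most 0.384 CPM in the other HFD libraries. The log2 ratio of Ang to Rnase4 in HFD 4, -2.397, lay above the -8.17 to -5.55 of the others and rests on the same 7 reads.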

How the results depend on the processing

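Across the alternatives the 8 genes gave 238 further log2 fold changes, of which 221 kept their direction, 17 turned it and 0 passed an adjusted p of 0.05, with 0.129 as the lowest. Genes called were 0 in every alternative but DESeq2, with 1; leaving out single libraries gave 0 to 0. With limma-voom the values were 0.53 for Rnase1, -0.027 for Rnase4, 0.28 for Rnase9, 0.089 for Rnase12, 0.23 for Rnase13 and -0.54 for Ang. With the log2 gene total as a covariate they were 0.19 for Rnase9, 0.081 for Rnase13 and -0.28 for Ang, and with the late spermatid list as a covariate 0.22 for Rnase9 and 0.71 for Rnase13. Without HFD 4 and HFD 8 they were 0.21 for Rnase9, 0.16 for Rnase12 and -0.79 for Ang. Leaving out 1 library gave -0.35 to 0.12 for Rnase9 (highest without CD 2) and -0.97 to 0.60 for Ang (lowest without HFD 4). Leaving out 1 library, the log2 ratio difference of Rnase10 to Rnase9 ran from 1.15 to 2.58, and that of Ang to Rnase4 from -0.79 to 0.034. Without both HFD 4 and HFD 8 they were 0.44 and -0.51, and the second was 0.016 with a pseudocount of 5. The title number as a replicate block gave -0.22 for Ang and 0 genes called, and changed no call. For the ratios, signs of the differences between same-numbered libraries were flipped. The differences were 1.77 (sign-flip permutation p = 0.297) and -0.28 (sign-flip permutation p = 0.695). Same-numbered libraries correlated at -0.395 to 0.605, which does not pair the mice, and 2 of 8 correlated best with their own number. The cause of these changes was not tested. Ang could not be tested under the filter of 10 counts in 8 libraries. Depth limits Ang, with 0 to 7 reads a library, and the libraries low in Rnase1 or Rnase10.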
